A study of Rattus norvegicus with 144 samples.

Results

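The digestive enzymes of the pancreas, the granule proteins packed with them and the transcription factors of the acinar cell were followed in the pancreas of rats dosed with AMG A or AMG B for 14 days. The rule named 34 genes by symbol, and every probe set annotated with exactly 1 of these symbols was taken. It found 34 probe sets for 31 genes among the 31042 probe sets of the array table, of which 20826 had a single symbol. Rnase1 (a ribonuclease), Cckar (the cholecystokinin receptor) and Rbpjl (a partner of Ptf1a) had no such probe set, and 1 probe set that names both Amy1 and Amy2a3 was left out. The secreted proteins made up 27 probe sets of 27 genes, and the transcription factors 7 probe sets of 4 genes.

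The animals were male Sprague Dawley rats of 8 to 10 weeks, with no transgene or deletion named in the labels, dosed by mouth every day. Both compounds are known here only by code names, and the study's design text describes their pharmacology as antiangiogenic. Pancreas was taken on day 14 from 6 groups of 4 animals: 0, 3 and 30 mg/kg in the AMG A study, and 0, 3 and 60 mg/kg in the AMG B study, with a separate control group for each compound. The 24 pancreas arrays belong to a set of 144 arrays that also holds adrenal gland and liver.

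Acinar cells make most of the mass of the exocrine pancreas and devote most of their messenger RNA to digestive enzymes. Proteases, lipases, amylase and nucleases are stored together in zymogen granules and released into the duct when food arrives, the proteases as inactive precursors. Ptf1a is a basic helix-loop-helix factor that binds the promoters of enzyme genes in a complex with Rbpjl, at an E-box followed by a TTTCCC site. Nr5a2 works with this complex, Bhlha15 (Mist1) drives the secretory architecture of the cell, and Gata4 acts in pancreas development.

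To show how the enzyme genes are built, promoters from RefSeq (build GRCr8) were matched by symbol to 24 of the 31 genes, 21 of them secreted. The 250 bases before each start were searched on both strands for 3 motifs. An E-box was searched as CACCTG. The site that goes with it was searched as TTTCCC. The TATA box was searched as TATAAA. The 5 windows printed here are those of the enzymes with the spaced site described next and of both amylases, which include the enzyme with the largest fall in score. They are written 5′ to 3′ in the direction of the gene, capitals mark the 3 motifs on either strand, and bases inside an annotated gene were trimmed.
Ctrb1, chr19:56566979-56567228, minus strand: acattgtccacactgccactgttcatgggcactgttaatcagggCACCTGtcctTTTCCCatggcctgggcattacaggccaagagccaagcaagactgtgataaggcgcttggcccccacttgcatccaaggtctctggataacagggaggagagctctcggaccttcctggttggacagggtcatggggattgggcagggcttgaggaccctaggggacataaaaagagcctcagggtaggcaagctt
Cela1, chr7:133665137-133665311, minus strand: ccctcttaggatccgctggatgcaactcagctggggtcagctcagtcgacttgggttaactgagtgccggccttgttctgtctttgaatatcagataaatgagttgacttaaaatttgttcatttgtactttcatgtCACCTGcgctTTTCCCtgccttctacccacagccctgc
Prss2, chr4:71244714-71244963, plus strand: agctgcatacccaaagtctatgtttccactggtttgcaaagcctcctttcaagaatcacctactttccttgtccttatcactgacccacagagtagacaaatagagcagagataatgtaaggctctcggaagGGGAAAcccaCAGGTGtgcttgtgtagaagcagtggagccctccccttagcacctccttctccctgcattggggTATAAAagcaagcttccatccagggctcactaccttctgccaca
Amy1, chr2:204085911-204086160, minus strand: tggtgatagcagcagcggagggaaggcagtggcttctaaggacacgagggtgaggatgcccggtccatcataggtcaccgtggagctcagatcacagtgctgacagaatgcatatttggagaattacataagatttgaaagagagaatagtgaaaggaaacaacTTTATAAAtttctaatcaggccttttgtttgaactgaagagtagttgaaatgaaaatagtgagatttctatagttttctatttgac
Amy2a3, chr2:204014413-204014662, minus strand: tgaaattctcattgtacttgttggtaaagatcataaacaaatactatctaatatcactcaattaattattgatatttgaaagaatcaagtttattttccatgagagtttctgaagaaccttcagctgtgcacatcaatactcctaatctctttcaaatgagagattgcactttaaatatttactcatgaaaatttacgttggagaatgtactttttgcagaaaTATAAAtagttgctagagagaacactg

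CACCTG lay in 11 of the 24 windows and in 15.9% of all 33469 promoter windows of this length, and TTTCCC in 10 of 24 against 22.0%. TATAAA was found in 12 of 24 against 12.9%. These counts use the full 250 bases, bases inside an annotated gene included. The windows of Cpb1, Ctrl, Dnase1, Pla2g1b and Pnlip lay wholly inside an annotated gene. For Cela1 a TATAAA in the bases trimmed from the printed window was counted. In Ctrb1, Cela1 and Prss2 the first 2 motifs stood 4 bases apart (CACCTGNNNNTTTCCC, read on the opposite strand in Prss2), a spacing looked for after the sequences had been seen. This spaced pair was present in 8 of all 33469 windows, so 3 of those 8 belonged to the acinar genes. Neither amylase window held CACCTG or TTTCCC. Other letters were also searched: AAGGTCA, the type of site that Nr5a2 binds, lay in 3 of the 24 windows against 3.99% of all, and CATATG, an E-box of the type that Bhlha15 binds, in 1 of 24 against 3.63%. A match is a run of letters and not a measured binding site.

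All values are deposited scores. Each probe set's score has a mean near 0 and a standard deviation near 1, so that 1 unit is the spread of that probe set across tissues and treatments. That spread is over all 144 arrays for the 30 member probe sets found in both deposited tables, and over the arrays of the larger table alone for the other 4. A difference in score is not a fold change, levels cannot be set against each other between genes, and in tissue RNA fewer acinar cells cannot be told apart from less RNA per cell. A linear model over the 24 pancreas arrays (limma) gave each difference with its standard error (SE), and p-values were adjusted over all 31042 probe sets. A probe set is called higher or lower where the adjusted p was under 0.05. These p-values rest on the spread between animals, estimated over all 6 groups together and not over the compared groups alone. With 4 arrays a group the precision is limited by their number. Counts from fits with only the compared groups are given below.

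Most members scored higher in pancreas than in the other tissues. For 26 of the 34 probe sets every one of the 24 pancreas arrays stood above every one of the 48 adrenal and 36 liver arrays, with a lowest pancreas score of 0.71 and a highest score elsewhere of -0.28. This held for 24 of 27 secreted proteins, and among the regulators for Ptf1a and Bhlha15. Amy1, the amylase also made by liver and salivary gland, ran from -0.34 to 1.44 in liver and from -0.85 to 1.40 in pancreas. Klk1 (tissue kallikrein), Dnase1 (a nuclease) and the remaining probe sets of Gata4 and Nr5a2 also overlapped another tissue. On the pancreas arrays the mean score of the hepatocyte list lay between -1.04 and -0.63 and that of the adrenal cortex list between -0.72 and -0.67.

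Lymphocyte markers set 6 arrays apart. The mean score of 11 lymphocyte probe sets (9 genes, among them Cd74) was between 2.64 and 6.72 on those arrays and between -0.28 and 0.86 on the other 18. They came from animals 3009 and 3011 (AMG A control), 3034 (AMG A 30 mg/kg), 29 and 31 (AMG B 3 mg/kg) and 33 (AMG B 60 mg/kg). The array of animal 30 (AMG B 3 mg/kg) had the widest scores, with an SD of 1.99 against 1.15 to 1.64 on the others. Values of the regulators without the 6 lymphocyte-rich arrays are given with the regulators.

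Nearly every secreted acinar transcript was lower at AMG B 60 mg/kg. Against its own controls 24 of the 27 secreted probe sets fell and 0 rose, where 9.88% of all probe sets were called in either direction, 4.98% higher and 4.9% lower. In each of the 24 every treated animal was below every control, which was so for 9.52% of all probe sets. The median difference over the secreted proteins was -1.07, against -0.02 over all probe sets. The 3 that were not called were Klk1, Prss3 and Dnase1. The 25 member calls became 3 after quantile normalization and 10 with only the compared groups in the fit. With only the compared groups the calls over all probe sets also fell, as given under the processing. For quantile normalization that count is not given, so a loss particular to the members cannot be told apart from a general one. The heat map of scores shows these rows paling at the high dose of AMG B.

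**Figure D1:**
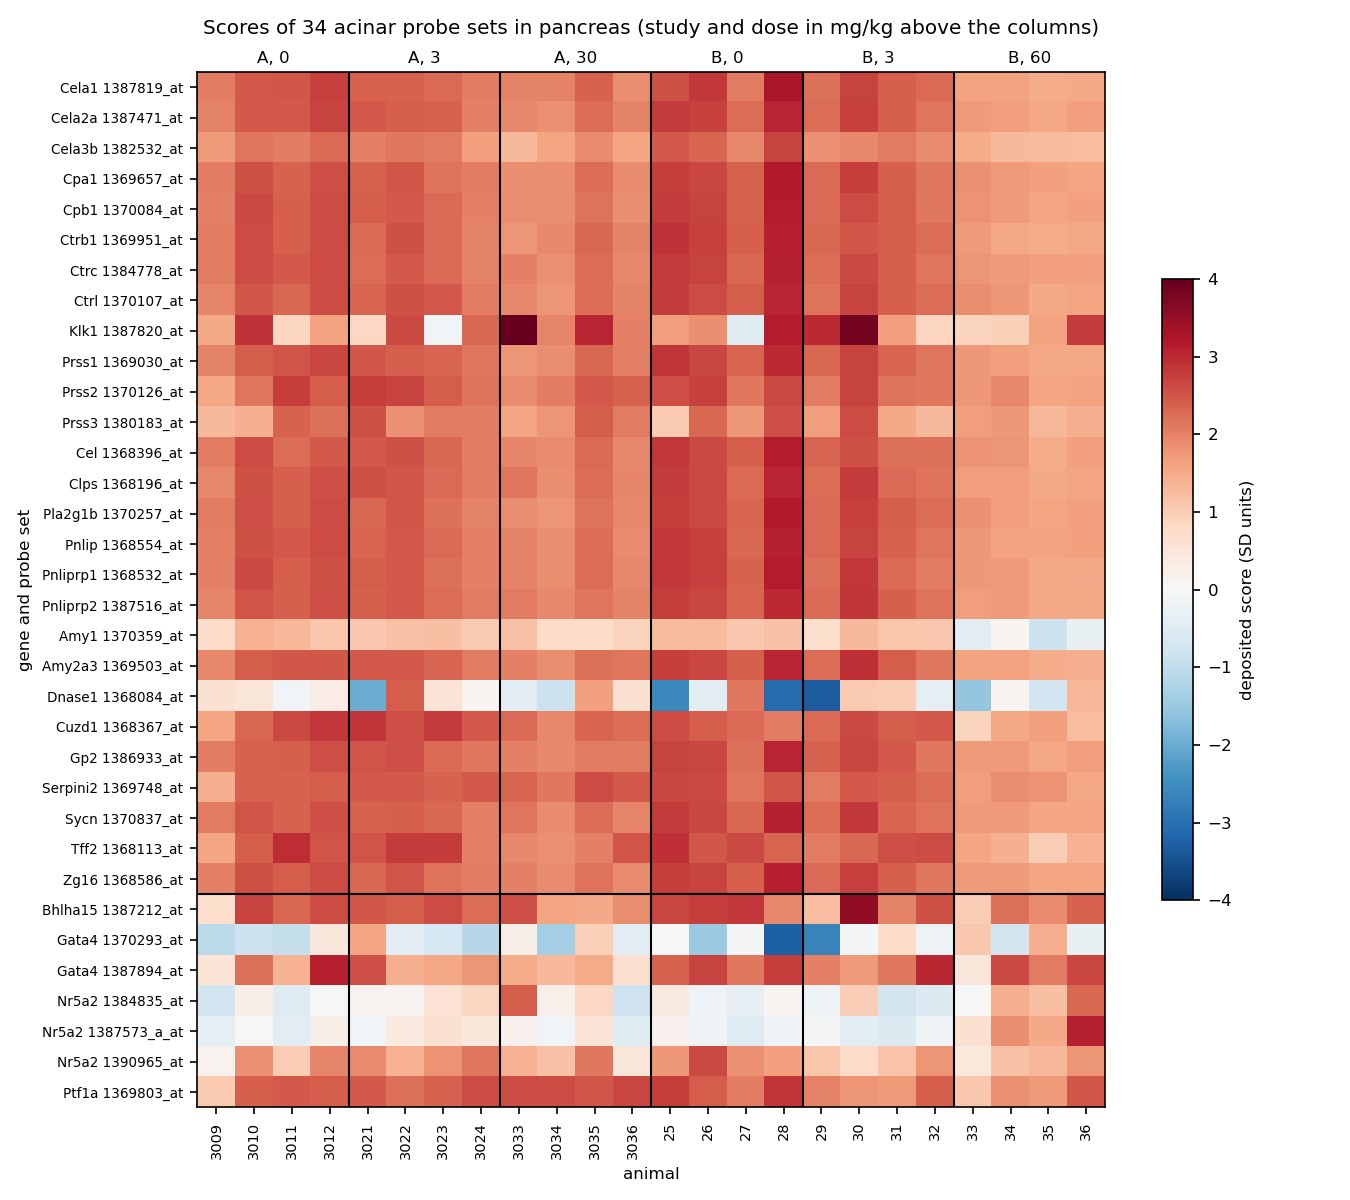
Heat map of deposited scores (colour, SD units, white at 0) for the 34 acinar probe sets (rows) in 24 pancreas arrays (columns, by animal), with vertical lines between groups and a horizontal line between secreted proteins and transcription factors. Most secreted rows are palest in the 4 AMG B 60 mg/kg columns, Amy1 turns below 0 in 3 of them, and Klk1, Dnase1 and the regulators vary between animals of a group.

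The proteases are made as precursors that trypsin activates in the gut. Cpa1, carboxypeptidase A1, scored 2.06, 2.53, 2.37 and 2.59 in the AMG A controls (animals 3009 to 3012), 2.37, 2.47, 2.18 and 2.04 at 3 mg/kg and 1.87, 1.86, 2.23 and 1.89 at 30 mg/kg. In the AMG B study it scored 2.76, 2.67, 2.36 and 3.18 in controls (animals 25 to 28), 2.26, 2.77, 2.38 and 2.10 at 3 mg/kg (29 to 32) and 1.81, 1.72, 1.64 and 1.59 at 60 mg/kg (33 to 36). The 4 animals at 60 mg/kg had the lowest values of all 24, and the difference from control was -1.05 ± 0.18 (SE, adjusted p = 0.00145).

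Other proteases followed the same course, and their values are given for animals 33 to 36 at 60 mg/kg and then for the controls 25 to 28. Ctrb1, a chymotrypsinogen and the first of the sequences above, scored 1.70, 1.56, 1.49 and 1.54 against 2.88, 2.75, 2.38 and 3.12, a difference of -1.21 ± 0.17 (SE, adjusted p = 0.000435). Prss1, a trypsinogen, scored 1.72, 1.65, 1.56 and 1.53 against 2.85, 2.67, 2.32 and 3.00. Prss2, a further trypsinogen, scored 1.74, 1.93, 1.58 and 1.61 against 2.57, 2.74, 2.12 and 2.63, a difference of -0.80 ± 0.23 (SE, adjusted p = 0.032). Of the called proteases Prss2 had the smallest fall, each in SD units of its own probe set. The Prss2 call was lost when any one of 6 animals was left out (adjusted p up to 0.0941).

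The 3 members of the elastase family fell as well. Cela1 scored 1.61, 1.61, 1.49 and 1.52 against 2.55, 2.84, 2.07 and 3.28, and Cela2a scored 1.69, 1.65, 1.55 and 1.65 against 2.81, 2.73, 2.25 and 3.04. Cela3b scored 1.48, 1.31, 1.26 and 1.23 against 2.45, 2.32, 1.93 and 2.72. In all 3 the highest treated animal was below the lowest control.

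Ctrc, which regulates trypsinogen activation, scored 1.76, 1.71, 1.63 and 1.63 against 2.81, 2.71, 2.28 and 3.09. Ctrl, a chymotrypsin-like protease, scored 1.85, 1.74, 1.50 and 1.59 against 2.80, 2.61, 2.41 and 3.05, and Cpb1, carboxypeptidase B1, scored 1.80, 1.72, 1.58 and 1.63 against 2.79, 2.69, 2.35 and 3.15. Over the 12 proteases 10 fell, with a median difference of -1.05 that includes the 2 not called. Prss3, another trypsinogen, differed by -0.37 ± 0.34 (SE, adjusted p = 0.525). Its controls alone ran from 1.04 to 2.57. Klk1 differed by 0.02 ± 0.79 (SE, adjusted p = 0.991), with controls from -0.47 to 3.13.

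All 6 lipase probe sets, that of the colipase included, fell, by 1.05 to 1.14 with a median difference of -1.07. Pnlip, pancreatic triglyceride lipase, scored 1.74, 1.62, 1.61 and 1.65 against 2.83, 2.74, 2.30 and 3.09, a difference of -1.08 ± 0.17 (SE, adjusted p = 0.00096). Clps, the colipase that anchors it to fat droplets, scored 1.68, 1.68, 1.52 and 1.58 against 2.79, 2.64, 2.27 and 3.05, and Cel, the bile salt-activated lipase, scored 1.81, 1.78, 1.50 and 1.65 against 2.82, 2.65, 2.39 and 3.14. Each treated animal was below each control in all 3.

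The lipase-related protein Pnliprp1 had the largest fall of the class, -1.14 ± 0.19 (SE, adjusted p = 0.0011), from 2.84, 2.74, 2.36 and 3.14 in controls to 1.75, 1.69, 1.56 and 1.52. The falls are in SD units of each probe set, so their order is no order of effects. Pnliprp2, which also cuts galactolipids, scored 1.69, 1.71, 1.56 and 1.55 against 2.77, 2.68, 2.34 and 2.99. Pla2g1b, the secreted phospholipase, scored 1.83, 1.67, 1.57 and 1.65 against 2.76, 2.63, 2.33 and 3.18. Pnlip, Pnliprp1 and Pnliprp2 are neighbours on chromosome 1, with gaps of 56.2 and 14.3 kb (GRCr8). Paralogs as close as these, the 3 trypsinogens on chromosome 4 and the 2 amylases can share signal on a probe set, so they are not independent readings.

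Amylase digests starch, and Amy1 had the largest fall in SD units of its own probe set. It scored 1.26, 1.28, 1.08 and 1.16 in the AMG B controls, 0.72, 1.29, 1.11 and 1.08 at 3 mg/kg and -0.45, 0.08, -0.85 and -0.30 at 60 mg/kg. In the AMG A study it scored 0.74, 1.40, 1.33 and 1.11 in controls, 1.08, 1.18, 1.21 and 1.04 at 3 mg/kg and 1.18, 0.76, 0.75 and 0.89 at 30 mg/kg. The highest animal at AMG B 60 mg/kg (0.08) was below the lowest value on any other pancreas array (0.72), and the difference from control was -1.57 ± 0.24 (SE, adjusted p = 0.000691).

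Amy2a3, the pancreatic amylase that lies 56.7 kb from Amy1 on chromosome 2, scored 1.61, 1.61, 1.47 and 1.46 against 2.76, 2.68, 2.39 and 3.06. Its difference of -1.19 ± 0.18 (SE, adjusted p = 0.000691) followed those of Amy1, Tff2 and Ctrb1 among the falls, each in SD units of its own probe set. Dnase1 scored from -3.08 to 2.10 in controls and from -1.54 to 1.34 at 60 mg/kg, a difference of 0.77 ± 1.10 (SE, adjusted p = 0.707) with an SE wider than the change.

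All 6 granule proteins fell, with a median difference of -1.05. Gp2, the main protein of the zymogen granule membrane, scored 1.69, 1.70, 1.55 and 1.68 against 2.72, 2.67, 2.21 and 3.05. Sycn (syncollin, on the inner face of that membrane) scored 1.70, 1.69, 1.56 and 1.56 against 2.79, 2.67, 2.28 and 3.07, and Zg16, a granule lectin, scored 1.70, 1.70, 1.58 and 1.58 against 2.77, 2.70, 2.38 and 3.12. Their falls lay between 1.01 and 1.10.

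Tff2, a trefoil peptide of mucous secretions, scored 1.57, 1.42, 0.99 and 1.38 against 2.91, 2.48, 2.66 and 2.33, a difference of -1.25 ± 0.25 (SE, adjusted p = 0.00448). Cuzd1, a granule protein with CUB and zona pellucida domains, scored 0.88, 1.54, 1.65 and 1.22 against 2.62, 2.41, 2.26 and 2.07, a difference of -1.02 ± 0.22 (SE, adjusted p = 0.00753). Serpini2, a serine protease inhibitor, scored 1.66, 1.86, 1.79 and 1.56 against 2.68, 2.65, 2.14 and 2.52, a difference of -0.78 ± 0.19 (SE, adjusted p = 0.0133). This was the smallest of the 24, each in SD units of its own probe set. In none of these 3 did the groups overlap.

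**Figure D2:**
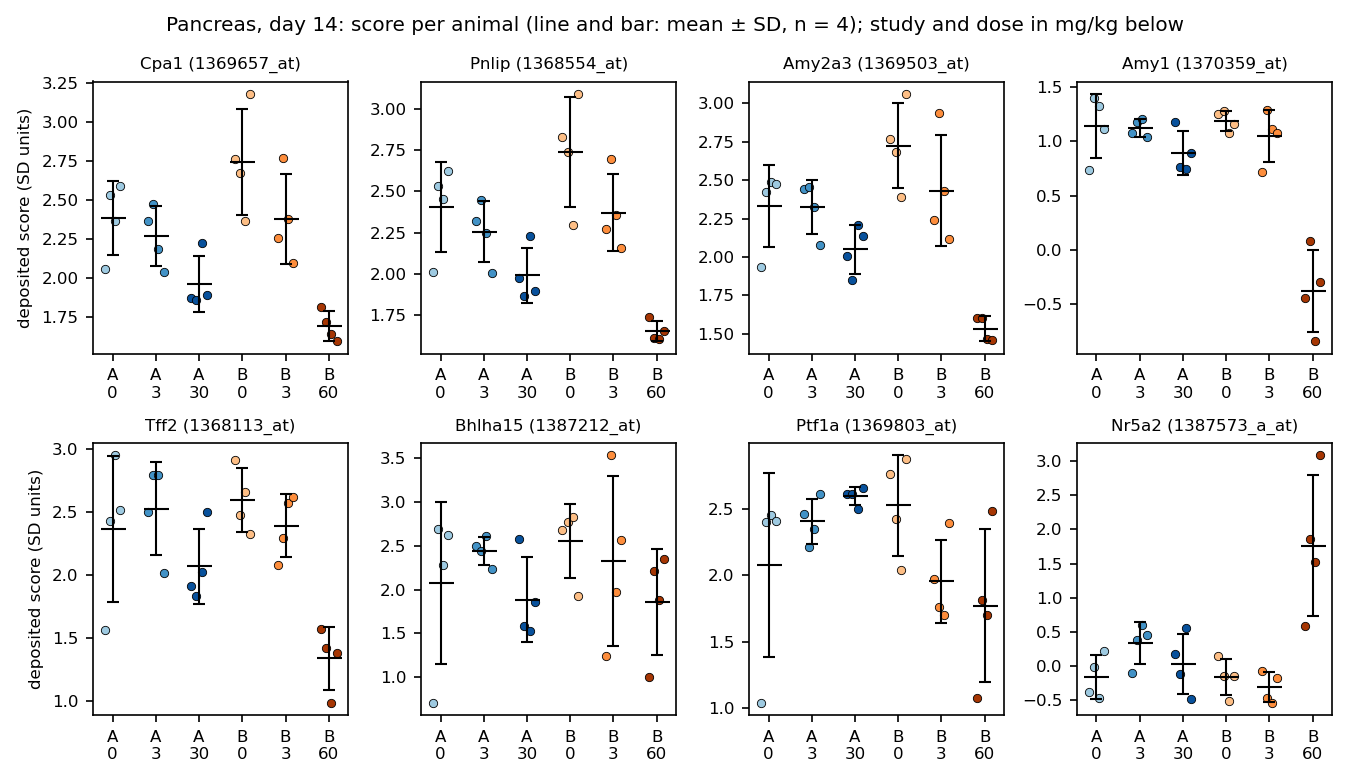
Deposited score (vertical axis, SD units) of 8 acinar probe sets in each animal by study and dose in mg/kg (horizontal axis), with the mean and SD of 4 animals. The 5 secreted proteins are lowest at AMG B 60 mg/kg, Amy1 between -0.85 and 0.08, while Bhlha15 and Ptf1a overlap with controls and Nr5a2 (1387573_a_at) lies above them. This Nr5a2 probe set is shown because it was called. Probe set 1390965_at, with most variance between tissues, differed in the other direction (-0.79) and was not called.

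Of the 7 transcription factor probe sets 0 were called lower and 1 higher at AMG B 60 mg/kg. Over all probe sets 4.9% were called lower and 4.98% higher, and 7 probe sets are too few to set against these shares. Ptf1a scored 1.04, 2.40, 2.46 and 2.41 in the AMG A controls, 2.46, 2.21, 2.35 and 2.61 at 3 mg/kg and 2.61, 2.61, 2.50 and 2.66 at 30 mg/kg. In the AMG B study it scored 2.77, 2.43, 2.04 and 2.87 in controls, 1.97, 1.76, 1.70 and 2.39 at 3 mg/kg and 1.08, 1.82, 1.70 and 2.49 at 60 mg/kg. The AMG B groups overlapped, and the difference at 60 mg/kg was -0.76 ± 0.30 (SE, 95% confidence interval -1.38 to -0.13, adjusted p = 0.114).

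Bhlha15 scored 2.68, 2.77, 2.83 and 1.92 in the AMG B controls, 1.23, 3.54, 1.97 and 2.56 at 3 mg/kg and 1.00, 2.22, 1.88 and 2.35 at 60 mg/kg. It scored 0.71, 2.70, 2.28 and 2.62 in the AMG A controls, 2.49, 2.44, 2.61 and 2.23 at 3 mg/kg and 2.58, 1.58, 1.52 and 1.85 at 30 mg/kg. Groups overlapped in both studies, and the difference at AMG B 60 mg/kg was -0.69 ± 0.45 (SE, 95% confidence interval -1.64 to 0.25, adjusted p = 0.355). That interval is wide and in SD units of its own probe set, so these data do not show that Bhlha15 differed from the secreted proteins. A difference between them was not tested.

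Gata4 was read by 2 probe sets. Tissue accounted for 89.4% of the variance of probe set 1387894_at and for 5.61% of that of 1370293_at. The first of these scored 0.46, 2.64, 2.09 and 2.66 against 2.35, 2.71, 2.10 and 2.78, a difference of -0.52 ± 0.50 (SE, adjusted p = 0.544). In the AMG A study it scored 0.56, 2.21, 1.39 and 3.12 in controls and 1.48, 1.32, 1.49 and 0.67 at 30 mg/kg. The other, 1370293_at, differed by 1.58 ± 0.81 (SE, adjusted p = 0.224). Neither was called, and their differences had opposite signs.

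Nr5a2, a nuclear receptor that cooperates with Ptf1a at enzyme genes, gave 3 probe sets that disagreed. Probe set 1390965_at, for which tissue accounted for most of the variance (90.4%), scored 0.42, 1.18, 1.32 and 1.76 against 1.75, 2.65, 1.82 and 1.63, a difference of -0.79 ± 0.41 (SE, adjusted p = 0.233). Probe set 1387573_a_at rose from 0.16, -0.14, -0.50 and -0.14 to 0.60, 1.86, 1.52 and 3.08, a difference of 1.92 ± 0.37 (SE, adjusted p = 0.00343). Its groups did not overlap, as was so for 8.37% of all probe sets in the higher direction.

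The third Nr5a2 probe set, 1384835_at, scored 0.01, 1.47, 1.20 and 2.28 against 0.36, -0.21, -0.33 and 0.06 and was not called (difference 1.27 ± 0.55 SE, adjusted p = 0.151). With the 3 averaged, Nr5a2 differed by 0.80 (adjusted p = 0.186). Which transcripts each probe set reads is not given in the sources used here.

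In 2 of the 4 groups that held lymphocyte-rich arrays, the array with most lymphocyte signal was also the lowest for 6 of the 7 regulator probe sets. In the AMG A controls animal 3009, whose lymphocyte mean was 6.72, had the lowest Bhlha15 (0.71), Ptf1a (1.04), Gata4 (0.56 on 1387894_at) and Nr5a2 (0.15 on 1390965_at) of its group. At AMG B 60 mg/kg animal 33, with a lymphocyte mean of 5.13, had the lowest Bhlha15 (1.00), Ptf1a (1.08), Gata4 (0.46) and Nr5a2 (0.42) of its group. Its Cpa1 score of 1.81 was the highest of that group. In the other 2 groups this was so for fewer probe sets: animal 3034 was lowest for 1 of 7 at AMG A 30 mg/kg, with Ptf1a at 2.61, and animal 29 for 2 of 7 at AMG B 3 mg/kg.

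With the 6 lymphocyte-rich arrays left out, the same 25 member probe sets were called at AMG B 60 mg/kg, Nr5a2 1387573_a_at differed by 2.31, and Bhlha15 by -0.40 (adjusted p = 0.465). Gata4 on 1387894_at then differed by -0.02 in place of -0.52, and Ptf1a by -0.52 (adjusted p = 0.219) in place of -0.76. Nr5a2 differed by -0.54 on 1390965_at and by 1.68 on 1384835_at, and Gata4 by 1.35 on 1370293_at. None of these 5 was called with or without the arrays. The part of lymphoid tissue in the regulators' values was not tested beyond this.

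**Figure D3:**
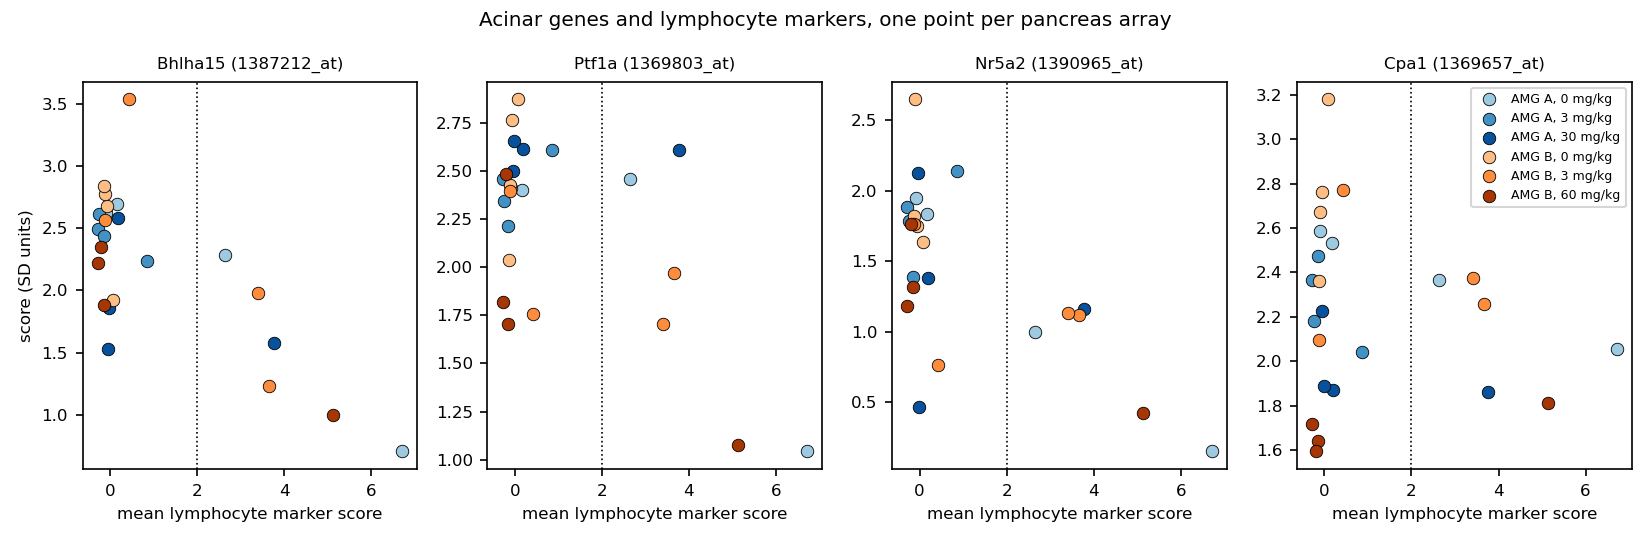
Score (vertical axis, SD units) of 3 transcription factors and of Cpa1 against the mean score of 11 lymphocyte probe sets (horizontal axis), with 1 point per pancreas array and colours for the 6 groups. The dotted line at 2 separates the 6 lymphocyte-rich arrays, among which animals 3009 and 33 (6.72 and 5.13 on the horizontal axis) have the lowest Nr5a2 and Ptf1a values.

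Heights above the adrenal level describe each probe set against its own control. For the 25 secreted and 4 transcription factor probe sets in which all pancreas arrays exceeded all adrenal arrays, each score was taken as its distance from the adrenal mean, in percent of the control mean of the same study. At AMG B 60 mg/kg the secreted proteins stood at a median of 65.8% (quartiles 64.4 and 66.8%). Amy1 was lowest at 37.2% ± 15.2 (SD, n = 4), followed by Tff2 at 58.5% ± 8.24 (SD, n = 4). Prss3, which was not called, was highest at 84.8%, and Serpini2 stood at 73.4% ± 4.60 (SD, n = 4). The adrenal level is background signal plus any true expression there, and the scale of the scores before standardisation is unknown, so the percentages are a description of each probe set and their order is no order of effects.

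The 4 transcription factor probe sets stood between 73.1 and 84.5% at AMG B 60 mg/kg, with SDs from 18.9 to 30.9 that reach across the secreted range. The other regulator probe sets (Gata4 1370293_at, Nr5a2 1384835_at and Nr5a2 1387573_a_at) overlapped adrenal and have no height. Their mean scores were above those of the controls at AMG B 60 mg/kg, and Nr5a2 1387573_a_at was called higher. At AMG A 30 mg/kg the secreted proteins stood at a median of 87.2%, from 82.0% for Cela3b to 109% for Serpini2. At 3 mg/kg their median was 97.5% with AMG A and 89.9% with AMG B.

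**Figure D4:**
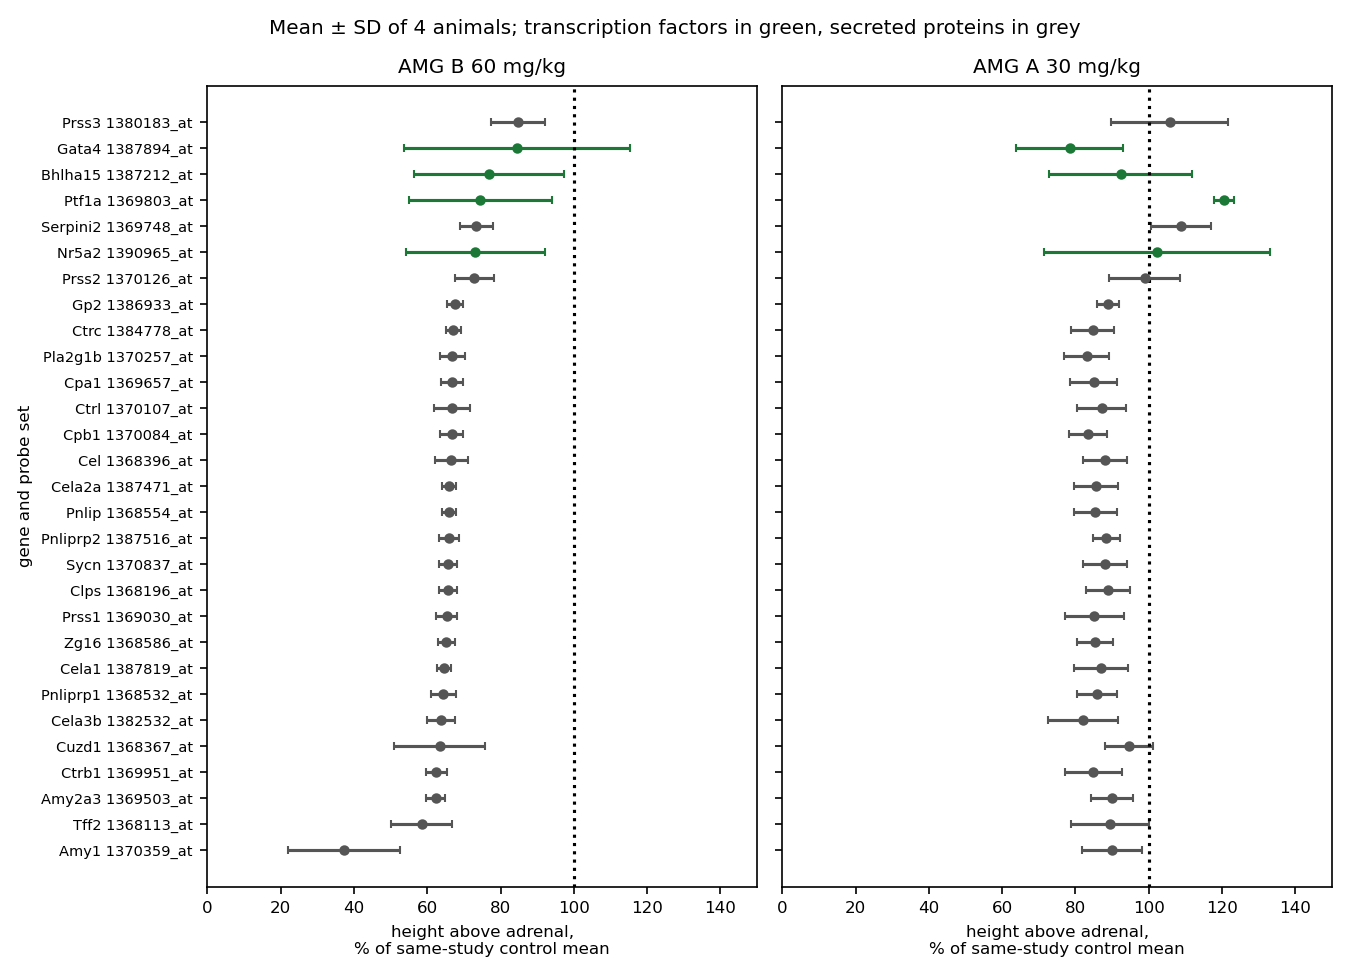
Height of each probe set above the adrenal mean in percent of the same-study control mean (horizontal axis; points are means and bars SDs of 4 animals) for AMG B 60 mg/kg (left) and AMG A 30 mg/kg (right), ordered by the AMG B value. With AMG B most secreted proteins (grey) lie near the median of 65.8% and Amy1 at 37.2%, and with AMG A the median is 87.2%.

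Across the 24 pancreas arrays 29 of the 31042 probe sets correlated above 0.9 with the median secreted score, and 19 of these were members (n = 24 arrays). The median contains the members, so a high r of a member is in part fixed by that. Pnlip was closest to the median (r = 0.995), followed among members by Cela2a (0.994) and Zg16 (0.993). Amy1 (0.783), Serpini2 (0.756), Tff2 (0.754) and Cuzd1 (0.699) followed it less closely. Of the 26 probe sets above adrenal and liver on every pancreas array, Ptf1a (0.374), Prss3 (0.443) and Bhlha15 (0.444) had the lowest r, and Klk1 (0.161) and Dnase1 (-0.176) lay lower still. The lowest of all members were Gata4 1370293_at (-0.322), Nr5a2 1384835_at (-0.376) and Nr5a2 1387573_a_at (-0.590).

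Above the same r of 0.9 were also 5 named probe sets outside the list and 5 without a single symbol. Prss3b, Rnase1l2 and Klk1b3 carry the names of secreted enzyme families. Eef1a1, a translation elongation factor, and Rps29, a ribosomal protein, are expressed in all cells. Eef1a1 scored 1.35, 1.16, 0.94 and 0.80 at AMG B 60 mg/kg against 2.77, 2.36, 1.92 and 3.29, a difference of -1.52 ± 0.28 (SE, adjusted p = 0.0025). Rps29 differed by -1.40 ± 0.26 (SE, adjusted p = 0.0024). Of 56 ribosomal and elongation factor probe sets 7 rose and 5 fell, with a median difference of 0.12, where 4.98% of all probe sets rose and 4.9% fell.

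Both genes were picked because they followed the secreted median, so a fit that holds them constant removes the shared fall by construction and tests nothing. With the mean of Eef1a1 and Rps29 as a covariate 0 of 34 members were called at AMG B 60 mg/kg and 3 of all probe sets were. The median difference of the 24 fallen proteins was then -0.23, Amy1 differed by -1.20 (adjusted p = 0.329), and Prss2 by 0.20. After quantile normalization 3 members were called (Amy1 and Amy2a3 lower, Nr5a2 1387573_a_at higher) and the median of the 24 was -0.66. With each array centred and scaled 19 were called and the median was -0.60. Under both settings the count over all probe sets is not given here. Whether these probe sets share a limit of the array at very bright signals was not tested, because the sources used here give no raw intensities.

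**Figure D5:**
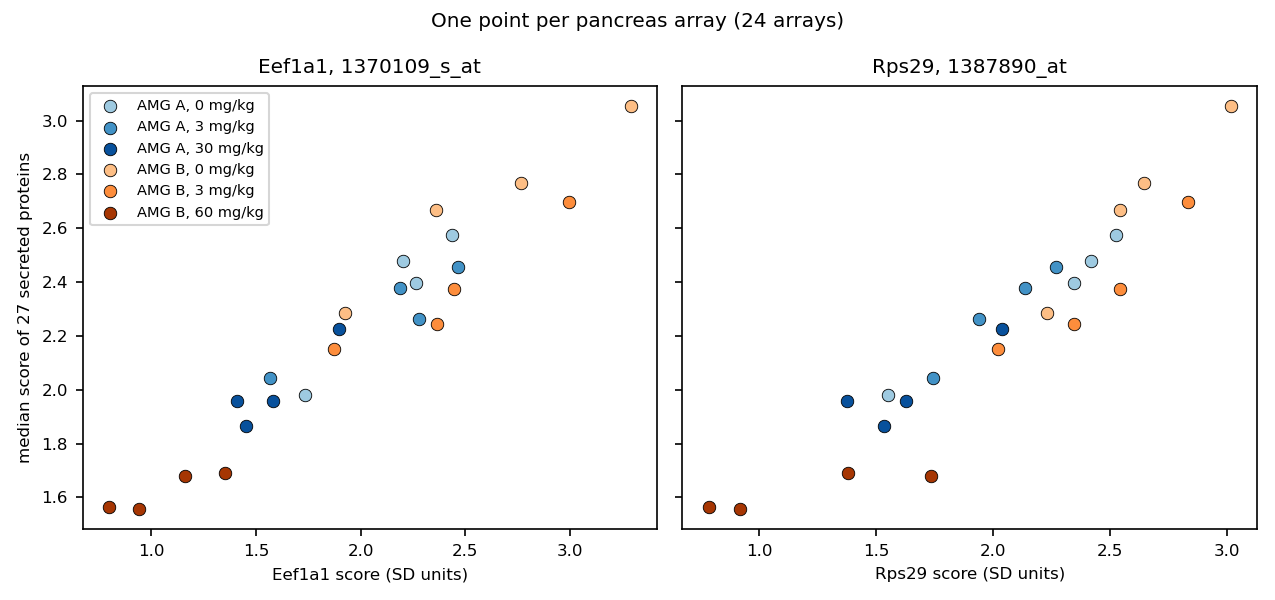
Median score of the 27 secreted proteins (vertical axis) against the score of Eef1a1 (left) and Rps29 (right, both in SD units), with 1 point per pancreas array and colours for the 6 groups. The 4 AMG B 60 mg/kg arrays lie at the lower left, with Eef1a1 between 0.80 and 1.35, and arrays of the other groups run up the same diagonal (r = 0.966 and 0.947, n = 24 arrays).

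At the low dose of AMG B no member passed the test (0 of 34, where 0.0226% of all probe sets were called). Of the 34 members 8 had an unadjusted p under 0.05, as did 2729 of all 31042 probe sets. The median difference of the secreted proteins was -0.31. Cel, for example, differed by -0.43 ± 0.17 (SE, 95% confidence interval -0.78 to -0.07, adjusted p = 0.456). Between 60 and 3 mg/kg of AMG B, 21 secreted probe sets fell and Nr5a2 1387573_a_at rose, where 3.68% of all probe sets were called, 1.22% lower and 2.46% higher. In 24 members every animal at 60 mg/kg was below every animal at 3 mg/kg, as in 5.06% of all probe sets. Amy1 led with -1.43 ± 0.24 (SE, adjusted p = 0.00292). This count of 22 rested on few animals: it was 5 without animal 30, 6 without 35, 8 without 36, 11 without 31 and 12 without 34, and 8 without the 6 lymphocyte-rich arrays.

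With AMG A no member was called at either dose (0 of 34 each, where 0.00322% of all probe sets were called at each dose), or between the doses (0.00966%). At 30 mg/kg the secreted median difference was -0.33. The unadjusted p was under 0.05 for 11 of the 27 secreted proteins and for 2086 of all 31042 probe sets. Pla2g1b and Cpb1 had the largest differences among the 11, at -0.48 ± 0.18 (SE) and -0.48 ± 0.18 (SE, adjusted p = 0.616 and 0.614). For Cpa1 the 95% confidence interval was -0.80 to -0.05. Ptf1a was higher by 0.52 (95% confidence interval -0.11 to 1.14, adjusted p = 0.804), with all 4 treated animals above all 4 controls, as in 2.49% of all probe sets. Without control animal 3009 (Ptf1a score 1.04) this difference was 0.17 (adjusted p = 0.997), and without the 6 lymphocyte-rich arrays 0.18. At 3 mg/kg the secreted median difference was -0.07, and 0 members had an unadjusted p under 0.05, where 1138 of all 31042 probe sets did.

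The compounds can be matched at 3 mg/kg only. There the effect of AMG B minus that of AMG A was tested for all members, and 0 of 34 passed, as did 0 of all 31042 probe sets in limma, where 2909 had an unadjusted p under 0.05. The secreted median of this difference between effects was -0.26. For Cpa1 it was -0.25 ± 0.25 (SE) with a 95% confidence interval of -0.78 to 0.28, and for Nr5a2 1390965_at it was -1.33 ± 0.58 (SE, 95% confidence interval -2.55 to -0.12, adjusted p = 0.521). Such intervals do not show that the compounds act alike.

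The high doses differ, 60 mg/kg of AMG B and 30 mg/kg of AMG A, so their difference mixes compound and dose. The effect of AMG B minus that of AMG A was -1.33 ± 0.34 (SE, adjusted p = 0.0363) for Amy1 and -1.01 ± 0.27 (SE, adjusted p = 0.0418) for Serpini2, where 3.51% of all probe sets were called and 1.92% called lower. No other member was called, although 24 secreted proteins in all had an unadjusted p under 0.05, as did 6777 of all 31042 probe sets. This count of 2 became 0 without any one of animals 3009, 3033, 3035, 3036, 25, 26, 28 or 35, 1 without 3012 or 33, 5 without 27, and 0 without the 6 lymphocyte-rich arrays.

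The controls of the studies were also compared. No member was called (0 of 34, where 0.0934% of all probe sets were). An unadjusted p under 0.05 was found for 4 members and for 3238 of all 31042 probe sets, a similar share. The secreted median was 0.32 higher in the AMG B controls. This was about as large as the secreted median at AMG A 30 mg/kg against control. Study and compound cannot be told apart where the compounds are compared.

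Genes that serve the acinar cell were read from lists of related function. At AMG B 60 mg/kg 1 of 23 secretion machinery probe sets fell (Sytl1, which tethers granules, -1.32), with a list median of 0.11, and over all probe sets 4.9% fell and 4.98% rose. Of 28 secretagogue signalling probe sets 1 fell (Chrm3, the muscarinic receptor through which acetylcholine drives secretion, -1.36), and both counts are near the share over all probe sets. Among 20 probe sets of the endoplasmic reticulum and translation 2 rose and 4 fell. The chaperone Hyou1 (2.36) and the disulfide isomerase Pdia4 (0.68) rose. Erp27 (-0.88) and Ero1b (-0.76), which serve protein folding, fell, as did the pancreatic disulfide isomerase Pdia2 (-0.73) and Sel1l (-0.64), which serves the disposal of misfolded proteins. The medians of these 2 lists were -0.31 for signalling and -0.10 for the reticulum, against -0.02 over all probe sets.

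Of 7 probe sets for trypsin inhibitors and cathepsins 3 were called, where 4.98% of all probe sets were called higher and 4.9% lower. Spink1, the trypsin inhibitor made by the acinar cell, was called lower on 2 probe sets (-0.92 and -0.78), and the cathepsin Ctsl rose by 0.62. Among 21 probe sets for other regulators of the lineage Tcf12, an E protein that pairs with Ptf1a, rose by 2.60, and Gata6 rose by 0.85 on one probe set and fell by 2.24 on another. The medians of these 2 lists were 0.0078 and 0.085, against -0.02 over all probe sets. Lists of 7 and 21 probe sets are too small to set against the shares over all probe sets. In these lists 0 probe sets were called with AMG A or with 3 mg/kg of AMG B.

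Markers of other cells were read beside the acinar genes, with the same shares over all probe sets (4.98% higher, 4.9% lower). Injured acinar cells and acinar-to-ductal change are marked by a list in which 4 of 16 probe sets rose at AMG B 60 mg/kg: Reg3b (4.29), Reg3a (3.50), Lcn2 (2.15) and Clu (1.03). The mean of this list was between 1.82 and 3.89 in those 4 animals and between 0.66 and 0.89 in their controls. Of 17 stellate and fibroblast probe sets Lum (2.35) and Acta2 (2.28) rose. The mean of the fibroblast list overlapped between the groups, from -0.05 to 3.07 at 60 mg/kg and from 0.20 to 1.23 in controls. Of 14 duct probe sets Car2 rose (1.98) and Muc1 fell (-1.59), counts near those shares. Among 15 endothelial probe sets Tek (-1.62) and Kdr (-0.73), receptors of vessel growth factors, fell. The list medians were 1.56 for injured acinar cells, 1.00 for fibroblasts, 0.63 for duct and -0.54 for endothelium.

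Of 14 islet probe sets the insulin genes Ins2 (-0.83) and Ins1 (-0.69) fell, from 2.52 ± 0.17 to 1.69 ± 0.09 and from 2.39 ± 0.27 to 1.71 ± 0.06 (means ± SD, n = 4), with a list median of 0.029. Lists for macrophages, lymphocytes, adipocytes, red cells, hepatocytes and adrenal cortex had 0 calls in limma in this contrast. Of their 54 probe sets 3 (all for macrophages) had an unadjusted p under 0.05, as did 8050 of all 31042 probe sets. The part of these other cells in the fall of the enzymes was not tested.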

How the data were processed

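RNA was extracted with RNeasy columns and 5 ug of total RNA was labelled with biotin, per the labels' protocols, and each sample was hybridised to its own rat expression array. The deposited values are scores that the authors had standardised for each probe set, to a median SD of 1.01, over 144 arrays for probe sets in both tables and over 108 for those in the larger table alone. What software read the arrays, how probes were summarised and whether logs were taken is not given in the sources used here. Gene symbols came from the platform annotation. Pancreas and adrenal controls were placed in a study through the animal numbers that liver labels share.

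Scores of the 24 pancreas arrays were fitted with limma 3.58.1 in R 4.3.3 (6 groups, trended empirical Bayes), with 9 contrasts and Benjamini-Hochberg adjustment over 31042 probe sets within each. On simulated data for the AMG B 60 mg/kg contrast (31042 probe sets, 200 changed) the fit recovered 11% of changes of 2 SD and 83% of changes of 4 SD, with 11 false calls. Here the SD is that of each probe set between animals within groups, not the unit of the scores. The simulated noise was normal and independent between probe sets, whereas members above r = 0.9 correlated with each other within groups (median pair r = 0.916). The recovery and the false calls describe the simulated setting only. The rule for named genes took every member called in a dose contrast, all transcription factors, the most changed enzyme of each class, and up to 4 called genes of each list. In the list of the endoplasmic reticulum and translation every called gene was named. A gene with several probe sets was named by the one with most variance between tissues. The figure of scores per animal shows instead the Nr5a2 probe set that was called. Members and lists were chosen with earlier results of these data known. Other settings tried were quantile normalization, scaled arrays, a filter on low scores, averaged probe sets, only the compared groups, no trend, a robust fit and leaving out each animal. A covariate and the removal of lymphocyte-rich arrays were added after the data were seen.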

Additional observations from a re-analysis of the deposited data

Results flagged for a closer look

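In 10 of 204 groups of 4 animals the highest or the lowest animal stood apart from its nearest neighbour by more of the group's range than Dixon's 95% critical value allows, a rate near the 1 in 20 that chance gives. Animal 3035 (AMG A 30 mg/kg) stood above its group for Cpa1 (score 2.23, a gap of 0.922 of the range), Cpb1 (2.16, 0.929) and Cel (2.25, 0.836). Animal 3009 (AMG A control), the array with the highest lymphocyte mean, stood below its group for Amy2a3 (1.93, 0.886), Serpini2 (1.44, 0.923) and Ptf1a (1.04, 0.961). Animal 30 (AMG B 3 mg/kg), the array with the widest scores, stood above its group for Prss2 (2.71, 0.841) and Clps (2.80, 0.850). For Gp2 animal 35 (AMG B 60 mg/kg) was low (1.55, 0.891), and for Gata4 on 1370293_at animal 3012 (AMG A control) was high (0.47, 0.858).

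The effect of AMG B at 60 mg/kg differed from that of AMG A at 30 mg/kg for Amy1 by -1.33 (limma, adjusted p = 0.0363) and for Serpini2 by -1.01 (limma, adjusted p = 0.0418), at doses that are not matched.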

How the results depend on the processing

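The count of 25 member probe sets called at AMG B 60 mg/kg became 3 after quantile normalization, 10 with only the compared groups in the fit and 0 with Eef1a1 and Rps29 as covariate, a pair picked for following the enzymes, and was 24 to 25 with any animal left out. It was 19 to 25 under the other alternatives. Prss2 turned to 0.20 with the covariate (adjusted p = 0.872). The count of 22 between 60 and 3 mg/kg became 2 after quantile normalization, 2 with scaled arrays, 0 with only the compared groups, 0 with the covariate and 8 without the lymphocyte-rich arrays, and was 5 to 22 with an animal left out. The count of 2 for the high-dose effects of the compounds became 1 after quantile normalization or in a robust fit, 0 with scaled arrays, the filter, only the compared groups, the covariate or without the lymphocyte-rich arrays, and was 0 to 5 with an animal left out. Over all probe sets, 3067 calls at 60 mg/kg became 1450 with only the compared groups and 3 with the covariate, and 1143 calls between the doses became 3 with only the compared groups. For quantile normalization and scaled arrays the counts over all probe sets are not given here. A loss particular to the members cannot be told apart from a general one under those settings. The other 6 contrasts had 0 member calls under every alternative run. Causes of these changes were not tested. Scores carry no signal over background, so limits at dim or bright probe sets are unknown. No paired analysis was possible because the groups compared hold different animals and share no animal number.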
